A study of Mus musculus with 2 samples.

Results

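The HIF response genes of mitophagy and stress described here are 10 mouse genes, Bnip3, Bnip3l, Fam162a, Higd1a, Ddit4, Ankrd37, Ndrg1, Bhlhe40, Vegfa and Stc2. They were chosen by symbol, with earlier results of these data known. All 10 were found among the 27998 genes that both count matrices list. The data are 2 droplet single-cell RNA libraries made on day 4 of mesendoderm differentiation. The PHD2 knockout library holds AB2.2 mouse embryonic stem cells that lack PHD2, the prolyl hydroxylase encoded by Egln1, and the wild type library holds AB2.2 cells taken through the same differentiation. Neither the altered part of Egln1 nor the number of knockout clones is given in the sources used here. Each genotype is represented by 1 library, so no difference between them has a test here, and a difference between the genotypes cannot be told apart from one between 2 cultures.

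In well oxygenated cells PHD2 hydroxylates the alpha subunits of hypoxia-inducible factor (HIF), which the VHL ubiquitin ligase then marks for destruction. When hydroxylation fails, HIF binds short motifs near its target genes and raises their transcription. Among the best known targets are glycolysis genes, and genes that lower the load on mitochondria. Mitophagy is the removal of mitochondria by autophagy. BNIP3 and its paralog BNIP3L (also called NIX) sit in the outer mitochondrial membrane and tie the organelle to the autophagosome.

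After limits on cell quality and removal of likely doublets, 6927 knockout cells and 8515 wild type cells were kept, with medians of 20999 and 20434 UMIs (unique molecular identifiers, each standing for 1 captured RNA molecule). The median mitochondrially encoded share of UMIs was 1.32% in knockout cells and 1.07% in wild type cells. The libraries shared 22 cell barcodes, 16 of them among kept cells. Egln1 was at 13.6 CPM (UMIs scaled to a common library total) in knockout cells and 18.2 CPM in wild type cells, which does not check the knockout, since RNA outside the altered part would still be counted. The label of embryonic stem cells was set against marker genes, and the 5 pluripotent markers did not share a direction. Pou5f1 was at 113 CPM in knockout and 143 CPM in wild type cells, Sox2 at 25.1 and 38.4 CPM, and Utf1 at 104 and 424 CPM. Nanog was at 45.5 CPM in knockout and 35.1 CPM in wild type cells, and Zfp42 at 34.3 and 20.8 CPM. All 6 mesendoderm and streak markers were over 1.5-fold higher in the knockout, T (Brachyury) at 318 against 5.86 CPM. No feeder fibroblast marker of 7 and no extraembryonic endoderm marker of 6 reached 5 CPM in either library. Their summed levels were 3.66 CPM in knockout and 2.63 CPM in wild type cells for feeders, with Lum and Postn at 0 in the knockout, and 2.09 and 2.77 CPM for endoderm, with Ttr at 0 in the knockout. Summed trophoblast markers were at 33.3 CPM in knockout and 12.6 CPM in wild type cells (Cdx2 16.4 and 1.30 CPM), neural markers at 47.9 and 71.8 CPM, and blood and endothelial markers at 62.6 and 13.4 CPM (Etv2 50.1 and 11.2 CPM). No gene of the last 3 lists was at 0. Their part in the results was not tested.

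Both libraries hold cells that differ in the share of UMIs from single chromosomes, and chromosome copies were not counted. Split by the share of UMIs from chromosome 8 genes, 56.2% of knockout cells and 85.3% of wild type cells lay in the higher of 2 groups. Split likewise by chromosome 11, 10.2% of knockout cells and 0.857% of wild type cells lay in the higher group. Ankrd37 and Egln1 are on chromosome 8 and Stc2 is on chromosome 11, so levels within these groups are given where they bear on a gene. Egln1 itself was at 17.6 CPM in knockout and 16.3 CPM in wild type cells of the lower chromosome 8 group, and at 10.4 and 18.5 CPM in those of the higher.

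The promoters are shown first, because the core of the motif that HIF binds, ACGTG, is short enough to read by eye. The sequences are RefSeq's (GRCm38.p6), the 250 bases before the transcript start, 5′ to 3′ on the gene's strand, with every ACGTG in capitals on either strand (CACGT where it lies on the opposite strand). They are those of 4 genes with higher levels in the knockout and of Stc2, which had the lowest ratio of the 10 but was not past the 1.5-fold limit for a difference.
Bnip3 (chr7:138909507-138909756, minus strand): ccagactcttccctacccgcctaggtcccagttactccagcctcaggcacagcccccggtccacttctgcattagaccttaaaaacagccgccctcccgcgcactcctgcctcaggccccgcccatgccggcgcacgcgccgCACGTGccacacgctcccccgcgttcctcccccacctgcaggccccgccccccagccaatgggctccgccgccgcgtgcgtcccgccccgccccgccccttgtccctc
Fam162a (chr16:36071562-36071811, minus strand): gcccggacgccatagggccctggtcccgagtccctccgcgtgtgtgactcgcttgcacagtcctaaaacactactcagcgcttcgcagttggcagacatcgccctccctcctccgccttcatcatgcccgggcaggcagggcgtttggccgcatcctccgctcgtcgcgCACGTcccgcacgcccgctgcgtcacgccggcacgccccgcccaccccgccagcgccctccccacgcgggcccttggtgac
Ddit4 (chr10:59951771-59952020, minus strand): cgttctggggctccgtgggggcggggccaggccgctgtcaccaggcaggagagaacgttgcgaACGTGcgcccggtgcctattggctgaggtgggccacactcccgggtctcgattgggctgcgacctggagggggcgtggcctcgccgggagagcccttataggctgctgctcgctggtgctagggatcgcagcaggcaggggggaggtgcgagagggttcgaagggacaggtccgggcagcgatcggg
Ankrd37 (chr8:45999851-46000100, minus strand): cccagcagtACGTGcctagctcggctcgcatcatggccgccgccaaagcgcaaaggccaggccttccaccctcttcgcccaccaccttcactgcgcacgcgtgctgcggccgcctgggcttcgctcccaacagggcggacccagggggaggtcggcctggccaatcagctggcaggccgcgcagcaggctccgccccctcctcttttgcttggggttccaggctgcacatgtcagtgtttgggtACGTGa
Stc2 (chr11:31370062-31370311, minus strand): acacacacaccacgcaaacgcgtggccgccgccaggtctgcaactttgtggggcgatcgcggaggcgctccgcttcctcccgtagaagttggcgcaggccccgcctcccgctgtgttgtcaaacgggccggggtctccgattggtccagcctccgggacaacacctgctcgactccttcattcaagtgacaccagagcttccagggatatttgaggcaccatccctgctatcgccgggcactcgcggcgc
In Bnip3 the motif starts 108 bases before the transcript start as part of the palindrome CACGTG, which reads as ACGTG on both strands and is also an E-box, the motif of basic helix-loop-helix factors. It lies 81 bases before the start in Fam162a, 187 in Ddit4, and 241 and 6 in Ankrd37. The Ankrd37 start used here, at base 45999850, lies inside the gene's GENCODE span, which reaches 46005707 at its 5′ end. Stc2 holds no ACGTG in this window and 2 matches of GCGTG, the other core form, counted on both strands.

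Promoters were found for 7 of the 10 genes, in 8 entries, and none for Bnip3l, Ndrg1 and Bhlhe40. Higd1a holds no ACGTG and 2 GCGTG in its 250 bases. Vegfa has 2 annotated starts, with no match of either form before the outer start and 1 of each before the inner. Of all 32851 promoters of the same length, 16.6% hold ACGTG on either strand, 28.2% hold GCGTG and 6.02% hold CACGTG. A match describes letters only, and binding was not measured here.

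Knockout cells held more RNA of Bnip3, Bnip3l, Fam162a, Ddit4, Ankrd37 and Bhlhe40 than wild type cells, between 1.69- and 3.001-fold, though the Bhlhe40 ratio was 1.15 (0.975 to 1.35) in cells of low chromosome 8 share. Higd1a and Vegfa stood near their wild type levels and Stc2 below its own. Levels are sums of UMIs over kept cells, in CPM, with a 95% Poisson interval that covers counting error only. A gene was taken as measured where the larger of its levels reached 5 CPM, and as higher or lower at 1.5-fold or more. Of the 10 genes 9 were measured. Of these 6 were higher in the knockout, 0 were lower and 3 lay between, against 11.8% of all 8540 measured genes higher and 2.35% lower. The 10 genes were chosen with earlier results of these data known, so this contrast is a description and no test. The median log2 ratio (knockout over wild type, 1 CPM added) was 0.93 over the 9 genes and 0.16 over all measured genes. With median-of-ratios scaling 5 of the 9 were higher and 1 was lower, against 5.48% and 6.73% of all measured genes, whose median moved to -0.08.

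**Figure D1:**
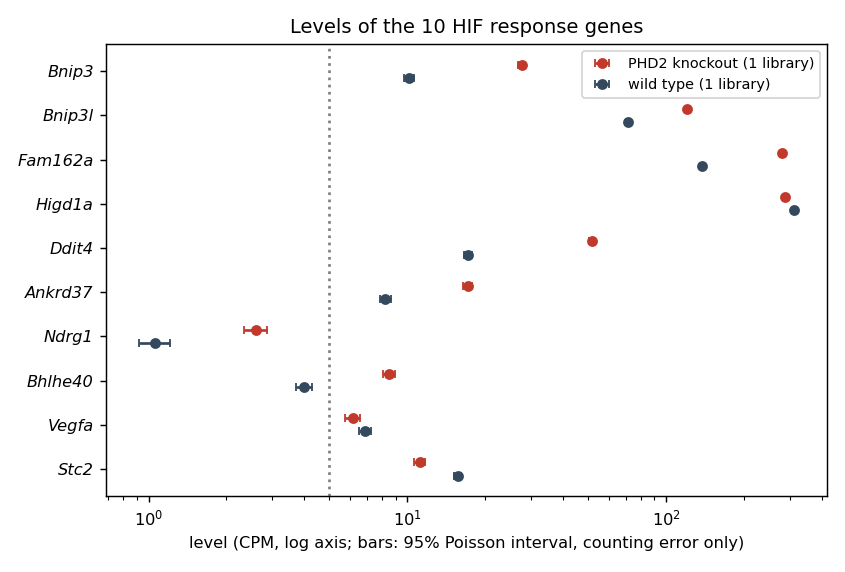
Level of each of the 10 genes (CPM, log axis) in the PHD2 knockout library (red) and the wild type library (dark blue), with 95% Poisson intervals and the 5 CPM limit as a dotted line. Knockout points lie to the right for all genes but Higd1a, Vegfa and Stc2, and Ndrg1 lies left of the limit in both libraries.

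The mitochondrial genes came first. Bnip3 (ENSMUSG00000078566; mm10 chromosome 7, 138890836 to 138909519, minus strand) encodes a mitophagy receptor of the outer mitochondrial membrane. It was at 27.6 CPM in knockout cells (26.8 to 28.5) and 10.1 CPM in wild type cells (9.69 to 10.6), 2.73-fold higher in the knockout (2.59 to 2.88). Bnip3l (chromosome 14, 66985239 to 67008877, minus strand), the paralog that clears mitochondria from maturing red blood cells, was at 120.4 CPM in knockout and 71.1 CPM in wild type cells, a smaller ratio of 1.69 (1.66 to 1.73). The interval of the Bnip3l ratio lies below that of Bnip3, so the paralogs did not differ between the libraries by the same factor. With median-of-ratios scaling the Bnip3l log2 ratio was 0.51, below the 1.5-fold limit.

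Fam162a (chromosome 16, 36043761 to 36071594, minus strand), a mitochondrial protein gene tied to cell death under hypoxia in human cells, was at 279 CPM in knockout and 138 CPM in wild type cells, 2.02-fold higher (1.99 to 2.05). Higd1a (chromosome 9, 121848563 to 121858362, minus strand), whose inner membrane protein associates with the respiratory chain, was at 288 CPM in knockout and 311 CPM in wild type cells. That is 1.08-fold lower in the knockout (1.07 to 1.09). The mitochondrial genes thus split, with 3 higher and Higd1a slightly below wild type.

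The stress genes with higher levels were Ddit4, Ankrd37 and Bhlhe40. Ddit4 (REDD1; chromosome 10, 59949669 to 59951834, minus strand), an inhibitor of the growth kinase complex mTORC1, had the highest ratio of the 10 genes in all kept cells. It was at 51.5 CPM in knockout (50.4 to 52.6) and 17.2 CPM in wild type cells (16.6 to 17.7), 3.001-fold higher (2.88 to 3.12). Ankrd37 (chromosome 8, 45996902 to 46005707, minus strand), an ankyrin repeat protein gene, was at 17.1 CPM in knockout and 8.21 CPM in wild type cells, 2.08-fold higher (1.956 to 2.21). Its annotated span overlaps Ufsp2 on the opposite strand, and the sources used here do not say how counting treated strand. Ufsp2 was at 35.1 CPM in both libraries. Fam162a overlaps Wdr5b (0.418 CPM in knockout and 0.377 CPM in wild type cells) and Bhlhe40 overlaps the antisense gene 0610040F04Rik (0.349 and 0.293 CPM) in the same way. Bhlhe40 (DEC1; chromosome 6, 108660629 to 108666925, plus strand), a transcriptional repressor linked to the circadian clock, was at 8.52 CPM in knockout and 4.00 CPM in wild type cells, 2.13-fold higher (1.95 to 2.33). That difference was not past the limit in cells of low chromosome 8 share, where its ratio was 1.15.

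Ndrg1 (chromosome 15, 66929318 to 66969640, minus strand), a stress-induced gene that is mutated in a human peripheral neuropathy, stayed below the 5 CPM limit. It was at 2.59 CPM in knockout cells from 409 UMIs and 1.06 CPM in wild type cells from 213 UMIs, a ratio of 2.45 (2.07 to 2.91).

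The secreted factors did not share this direction. Vegfa (chromosome 17, 46016993 to 46032369, minus strand), the main growth factor of blood vessels, was at 6.14 CPM in knockout and 6.87 CPM in wild type cells, 1.12-fold lower in the knockout (1.03 to 1.22). Stc2 (chromosome 11, 31357307 to 31370074, minus strand), a secreted glycoprotein gene, was at 11.1 CPM in knockout and 15.6 CPM in wild type cells, 1.40-fold lower (1.32 to 1.49). With median-of-ratios scaling Stc2 passed 1.5-fold lower, at a log2 ratio of -0.68.

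Other genes of the pathways were read by the same rule. Of 19 measured further HIF targets 10 were higher and 0 lower, against 11.8% and 2.35% of all measured genes. Their median log2 ratio was 0.56. P4ha1, a collagen prolyl hydroxylase, was at 9.44 CPM in knockout and 2.66 CPM in wild type cells, and Egln3, a HIF hydroxylase, at 6.15 and 1.89 CPM. Glycogen synthase 1 (Gys1) was at 10.55 CPM in knockout and 14.6 CPM in wild type cells, and the lipid droplet gene Hilpda at 25.7 and 28.3 CPM. Of the 7 measured mitophagy receptors outside the BNIP3 pair 1 was higher and 0 lower, with a median of -0.03. It was Fundc1, the receptor known for mitophagy under hypoxia, at 16.6 CPM in knockout and 9.68 CPM in wild type cells, while Fkbp8 was at 127 and 146 CPM and Phb2 at 408 and 439 CPM. With median-of-ratios scaling 6 further HIF targets were higher and 1 lower, and no mitophagy receptor was past the limit. Under that scaling 5.48% of all measured genes were higher and 6.73% lower. Without that scaling the count of mitophagy receptors that were higher lies near the 11.8% of all measured genes.

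Of 11 measured genes of the Pink1 and Parkin pathway, the other main route of mitophagy, 1 was higher and 0 lower (median 0.33). It was the cargo receptor Sqstm1 (p62), at 89.5 CPM in knockout and 51.2 CPM in wild type cells. Of 20 measured core autophagy genes 2 were higher and 0 lower (median 0.21), the lysosomal membrane gene Lamp2 at 25.2 and 13.2 CPM and Rb1cc1 at 25.5 and 16.8 CPM in knockout and wild type cells. Among 11 measured BCL2 family genes, relatives of Bnip3 in the control of cell death, none was higher and Bok was lower. It was at 27.2 CPM in knockout and 40.9 CPM in wild type cells, just past the limit at 1.505-fold lower (1.45 to 1.56). Over all measured genes 2.35% were lower. The counts higher among Pink1 and Parkin pathway genes and core autophagy genes lie near the 11.8% of all measured genes.

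Around Ddit4, 16 regulators and targets of mTORC1 were measured, of which 0 were higher and 1 lower (median 0.08). It was Eif4ebp1, a brake on translation that mTORC1 switches off and that ATF4 also induces, at 904 CPM in knockout and 1499 CPM in wild type cells. Of 10 measured p53 targets 1 was higher, Cdkn1a, the cell cycle inhibitor p21, at 316 CPM in knockout and 158 CPM in wild type cells. Of 25 measured genes of ATF4 and the unfolded protein response, stress pathways that also act on Ddit4, Vegfa and Stc2, 1 was higher and 2 were lower (median -0.21). Chac1 was at 33.3 CPM in knockout and 56.5 CPM in wild type cells, Trib3 at 24.8 and 39.4 CPM, and Vldlr at 24.1 and 13.3 CPM. With median-of-ratios scaling 6 of the 25 were lower and 1 higher, against 6.73% and 5.48% of all measured genes. Of 12 measured dissociation stress genes 1 was higher, Btg2 at 84.7 CPM in knockout and 51.6 CPM in wild type cells (median 0.09), and Jund was at 238 and 342 CPM. Over all measured genes 11.8% were higher and 2.35% lower. The counts higher among p53 targets and dissociation stress genes lie near that share. Of the genes named from these lists Fkbp8, Eif4ebp1 and Jund lie on chromosome 8. The median share of UMIs from that chromosome was 6.51% in knockout and 7.24% in wild type cells. Its part in the levels of Fkbp8, Eif4ebp1 and Jund was not tested.

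Few relatives of the 10 genes were measured. Ndrg3 was at 15.4 CPM in knockout and 6.15 CPM in wild type cells, and Higd2a at 159.9 and 141 CPM. Of the receptors and ligands around Vegfa, the co-receptor Nrp2 was at 18.5 CPM in knockout and 1.83 CPM in wild type cells, the receptor Flt1 at 5.43 and 4.397 CPM and the ligand Vegfb at 44.96 and 45.2 CPM.

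To see in how many cells each gene was found, every cell with at least 14000 UMIs was thinned at random to that number, which left out 646 knockout and 777 wild type cells. Bnip3 UMIs were in 28.3% of 6281 knockout cells (27.2 to 29.4, exact binomial) and 13.1% of 7738 wild type cells. Without thinning the shares were 38.3% and 20.1%. Ddit4 was found in 44.0% of knockout and 19.8% of wild type cells (56.2% and 28.8% unthinned), and Ankrd37 in 20.3% and 10.9% (29.4% and 16.9% unthinned). Bnip3l was found in 78.9% of knockout and 61.4% of wild type cells (88.1% and 74.6% unthinned), and Fam162a in 94.1% and 80.6% (96.7% and 89.1% unthinned). These 5 genes were found in a larger share of knockout cells, as was Bhlhe40, in 9.17% of knockout and 4.54% of wild type cells (13.6% and 7.54% unthinned).

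Of the rest, Ndrg1 was also found in a larger share of knockout cells, and Higd1a, Stc2 and Vegfa in a smaller one. Higd1a was found in 97.4% of knockout and 98.6% of wild type cells (98.5% and 98.7% unthinned). Stc2 was found in 13.2% of knockout and 18.7% of wild type cells (19.8% and 27.7% unthinned), Vegfa in 7.20% and 8.94% (11.95% and 14.2% unthinned), and Ndrg1 in 3.07% and 1.23% (4.99% and 2.13% unthinned). No cell type in these libraries is known to lack these genes, so a background share from free RNA could not be taken, and its part was not tested.

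For each of the 10 genes the variance of the counts per cell over their mean was larger in the knockout. Fam162a had 5 or more UMIs in 34.7% of knockout cells and 7.57% of wild type cells, with up to 29 UMIs in a knockout cell and 20 in a wild type cell. Its variance over the mean was 2.36 in knockout and 1.42 in wild type cells, where equal cells with counting noise alone would give about 1. For Bnip3 the variance over the mean was 1.40 in knockout and 1.06 in wild type cells, and for Ddit4 it was 1.59 and 1.29. For Higd1a it was 1.31 in knockout and 1.10 in wild type cells, although its mean was lower in the knockout. At an equal relative spread between cells this measure grows with the mean. The means of Fam162a, Bnip3 and Ddit4 were higher in the knockout, so their values do not compare relative spread. A cell had a median of 4 of the 10 genes in the knockout and 3 in the wild type, at most 8 and 7, and all 10 in 0 cells of either library.

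Among knockout cells, Bnip3 and Fam162a were higher where the streak factor T was found, and most of the other genes stood nearly level. T is a transcription factor that marks the primitive streak and nascent mesoderm, and cells were classed by its UMIs after thinning. A T UMI was found in 5138 knockout cells (81.8%) and 515 wild type cells (6.66%). Median depth before thinning was 21840 UMIs in T-positive and 21933 UMIs in T-negative knockout cells, and 21699 and 21038 UMIs in wild type cells. Free RNA can give a T UMI to a cell without T expression, so the comparison was repeated with at least 3 T UMIs for a positive cell.

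In the knockout, Bnip3 was 1.73-fold higher in T-positive cells (1.53 to 1.97), at 30.3 against 17.5 CPM in T-negative cells. Fam162a was at 305 CPM in T-positive and 204 CPM in T-negative cells, a ratio of 1.497 (1.44 to 1.55) that lay just under the limit in this random draw and passed it at 1.51 in another. With at least 3 T UMIs the ratios were 1.97 for Bnip3 and 1.66 for Fam162a. Bnip3 was thus the 1 gene of 9 measured past 1.5-fold higher and 0 were lower, against 1.94% higher and 2.09% lower among all 8607 measured genes. Bnip3l (121 and 113 CPM), Higd1a (293 and 283 CPM), Ddit4 (51.2 and 51.9 CPM), Ankrd37 (17.3 and 17.2 CPM) and Stc2 (10.8 and 10.9 CPM) stood within 1.1-fold of each other in T-positive and T-negative cells. Bhlhe40 was at 7.49 CPM in T-positive and 9.56 CPM in T-negative cells, 1.28-fold lower (1.06 to 1.53), and Vegfa at 5.35 and 6.62 CPM. The median over the 9 genes was 0.01 on the log2 scale, and 0.00 over all measured genes.

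The knockout cells were then divided by their number of T UMIs. Fam162a was at 204 CPM in cells with 0 T UMIs, 237 CPM with 1 to 2, 295 CPM with 3 to 5, 357 CPM with 6 to 10 and 393 CPM with over 10. Bnip3 was at 17.5, 21.7, 31.7, 34.6 and 40.2 CPM in the same order. Both genes increased at each step. For Bnip3 the intervals of the last 3 groups overlap from one to the next, whereas for Fam162a no neighbouring intervals overlap. Ddit4 stayed between 48.4 and 57.6 CPM, Higd1a between 282 and 299 CPM, and Stc2 was at 12.8 CPM with 1 to 2 T UMIs and 7.94 CPM with over 10.

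The share of knockout cells in the higher chromosome 8 group moved with T, at 61.7% of cells with 0 T UMIs and 46.4% of cells with over 10. Within the lower chromosome 8 group Fam162a was at 214 CPM with 0 T UMIs and 447 CPM with over 10, and within the higher group at 197 and 330.2 CPM. Bnip3 was at 22.7 and 48.6 CPM in the lower group and at 14.3 and 30.5 CPM in the higher. Both genes were thus higher in T-rich cells within each group, and at a given T count higher in the lower group than in the higher. Ddit4 was at 42.6 CPM with 0 T UMIs, 37.3 CPM with 1 to 2 (33.6 to 41.3) and 53.2 CPM with over 10 (47.1 to 59.8) in the lower group, and at 57.6, 56.6 and 62.7 CPM in the higher.

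**Figure D2:**
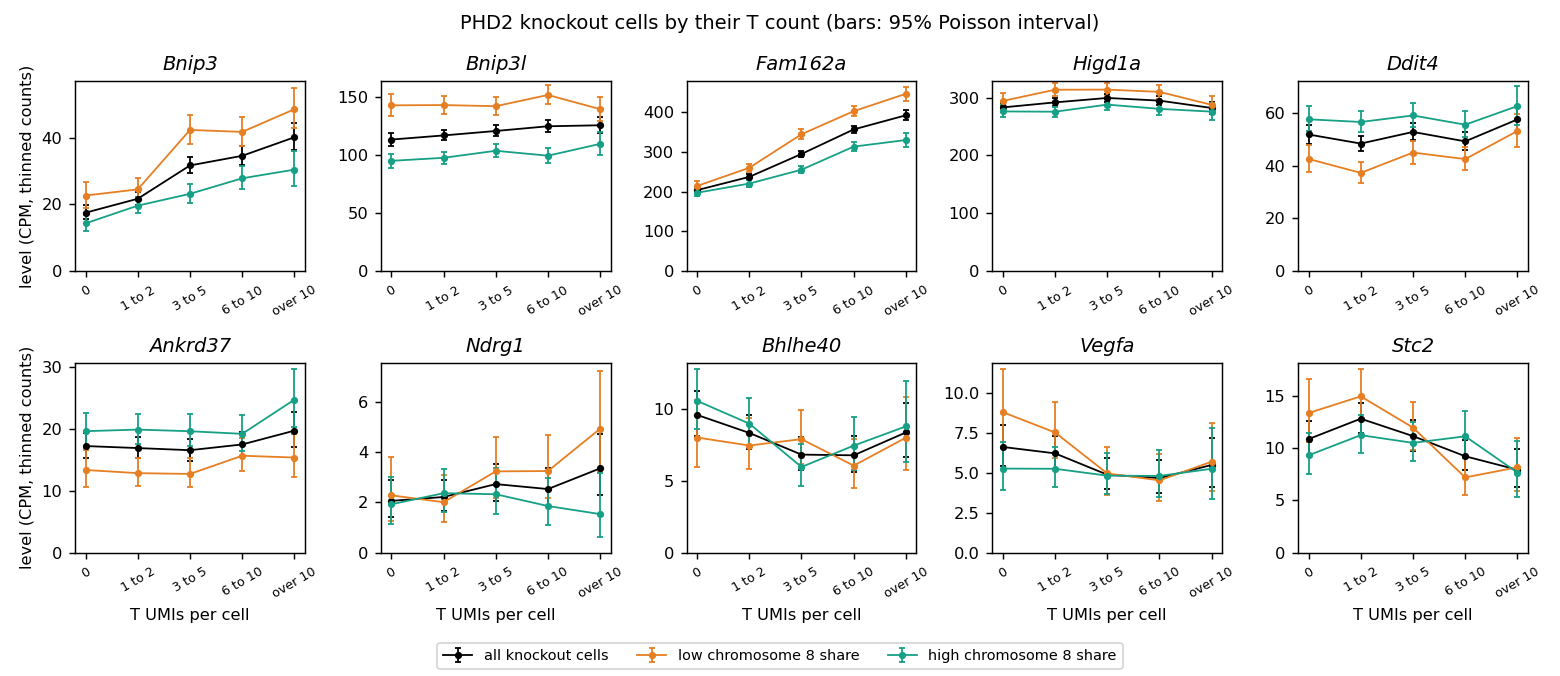
Level of each of the 10 genes (CPM of thinned counts, 95% Poisson intervals) in PHD2 knockout cells by their number of T UMIs, for all knockout cells (black) and for cells of low (orange) and high (green) chromosome 8 share. In all 3 sets Fam162a and Bnip3 are higher in cells with over 10 T UMIs than in cells with none, at 393 and 204 CPM and at 40.2 and 17.5 CPM in all knockout cells, while Higd1a lies between 282 and 299 CPM and Ddit4 between 48.4 and 57.6 CPM in all knockout cells.

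Mesp1, a factor of the earliest mesoderm, divided the genes in another way. In T-positive knockout cells Ddit4 was at 40.1 CPM (37.6 to 42.7) with a Mesp1 UMI and 56.7 CPM (54.6 to 58.9) without, and Bhlhe40 at 4.44 and 9.03 CPM. Vegfa was at 7.06 CPM (6.04 to 8.20) with Mesp1 and 4.49 CPM (3.91 to 5.14) without. Fam162a was at 305 CPM in both sets. Fam162a thus moved with T and stood level over Mesp1, and Ddit4 was lower in Mesp1-positive cells. The Mesp1 split was chosen after its values were seen.

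In wild type cells, where T-positive cells were few, no gene of 8 measured passed 1.5-fold, against 1.02% of 8035 measured genes higher and 0.411% lower. Bnip3 was at 9.29 CPM in T-positive cells (7.20 to 11.8, from 67 UMIs) and 10.47 CPM in T-negative cells. Fam162a was at 157 and 137 CPM, 1.14-fold higher in T-positive cells (1.07 to 1.21), and Bnip3l at 82.7 and 70.9 CPM. Whether the T contrast differs between the genotypes was not tested, since each is 1 library.

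The ratio between the genotypes was also taken within each class. The thinned T-positive cells of the knockout had 5 of the 9 measured genes higher than those of the wild type and 2 lower, against 10.7% and 2.9% of all 8541 measured genes. Among T-negative cells 5 were higher and 0 lower, against 13.1% and 1.96% of 8503 measured genes. Bnip3 was 3.26-fold higher among T-positive cells (2.56 to 4.23; 30.3 against 9.29 CPM) and 1.67-fold higher among T-negative cells (1.46 to 1.91; 17.5 against 10.47 CPM). Ddit4 was 2.82-fold higher among T-positive and 2.94-fold higher among T-negative cells. The Bnip3l ratio was 1.46 among T-positive cells (1.35 to 1.59) and 1.59 among T-negative cells (1.51 to 1.68), with overlapping intervals. The Fam162a ratio was 1.94 among T-positive cells (1.83 to 2.07) and 1.48 among T-negative cells (1.43 to 1.54), with intervals apart. Whether a ratio differs between the classes was not tested beyond these counting intervals. The T-positive cells were not matched in T count. Of 515 wild type cells 496 had 1 to 2 T UMIs, against 1676 of 5138 knockout cells. Among cells with 1 to 2 T UMIs, Fam162a was at 237 CPM in knockout and 158 CPM in wild type cells. Bnip3 was at 21.7 CPM in knockout and 9.50 CPM in wild type cells of that set. Vegfa and Stc2 passed the limit as lower among T-positive cells, 1.61-fold (1.21 to 2.11) and 1.52-fold (1.24 to 1.84), from 62 and 118 wild type UMIs. With 1 to 2 T UMIs, Vegfa was at 6.22 CPM in knockout and 8.64 CPM in wild type cells. Stc2 was at 12.8 and 16.6 CPM there, and neither gene passed 1.5-fold in that set.

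**Figure D3:**
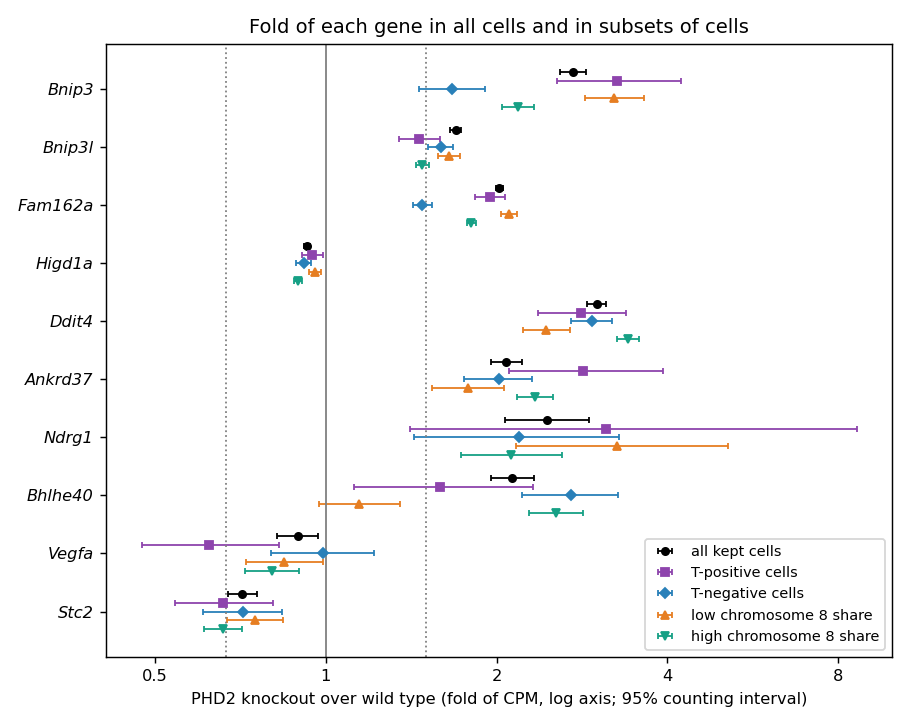
Ratio of each gene, PHD2 knockout over wild type (fold of CPM, log axis, 95% counting intervals), in all kept cells, in T-positive and T-negative cells, and in cells of low and high chromosome 8 share, with 1.5-fold limits dotted. Bnip3, Ddit4 and Ankrd37 lie past the limit in all 5 sets, Bhlhe40 is at 1.15 in cells of low chromosome 8 share, and Stc2 lies left of 1 in all 5.

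By chromosome 8 share, Bhlhe40 lost its difference in the lower group. It was at 8.09 CPM in knockout and 7.06 CPM in wild type cells there, a ratio of 1.15 (0.975 to 1.35), and at 8.87 and 3.49 CPM in the higher group, a ratio of 2.55 (2.29 to 2.84). Ankrd37, which lies on that chromosome, was 1.78-fold higher in the knockout in the lower group (14.5 against 8.14 CPM) and 2.34-fold higher in the higher group (19.2 against 8.23 CPM). Its wild type level thus did not differ between the groups by more than counting error, while its neighbour Ufsp2 was at 24.7 CPM in wild type cells of the lower group and 36.9 CPM in those of the higher. Bnip3l was at 143 CPM in knockout and 87.0 CPM in wild type cells of the lower group, and at 101 and 68.4 CPM in the higher group, where its ratio of 1.48 missed the limit. Ddit4 was at 43.3 CPM in knockout cells of the lower group and 58.2 CPM in those of the higher, the opposite order to Bnip3l.

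By chromosome 11 share, Stc2, which lies on that chromosome, was at 11 CPM in knockout cells of the higher group and 11.2 CPM in those of the lower. In wild type cells it was at 19.8 CPM in the higher group, from 32 UMIs in 73 cells, and 15.6 CPM in the lower.

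Across the cells of a library the 10 genes were mostly uncorrelated with each other. The 45 pairs had a median Pearson correlation (log of 1 + thinned count) of 0.00955 over 6281 knockout cells and 0.00368 over 7738 wild type cells. All points share 1 library, 1 depth and free RNA, and weak values in such sparse counts are no finding. In the knockout 3 pairs were over 0.1, and all 3 joined mitochondrial genes. Bnip3 with Fam162a was at 0.220 in knockout and 0.0111 in wild type cells, Bnip3 with Bnip3l at 0.115 and 0.0260, and Fam162a with Higd1a at 0.111 and 0.0134. In wild type cells 0 pairs were over 0.1, and the highest was Vegfa with Stc2 at 0.0434. Bnip3 had a mean of 0.392 thinned UMIs per cell in the knockout and 0.146 in the wild type, Fam162a 4.01 and 1.94, and Higd1a 4.08 and 4.33. The part of these levels in the correlations was not tested.

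**Figure D4:**
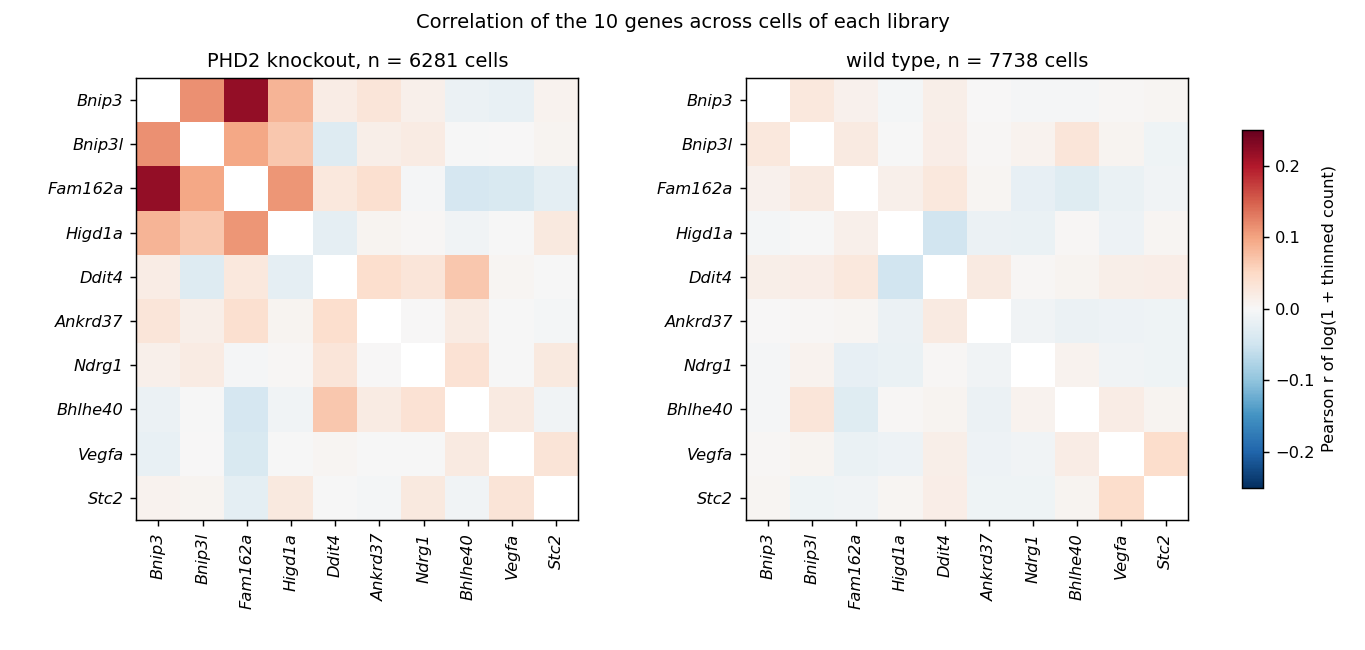
Pearson correlation of each pair of the 10 genes across cells, PHD2 knockout left (6281 cells) and wild type right (7738 cells), on 1 colour scale. The knockout panel has a block of positive values among Bnip3, Bnip3l, Fam162a and Higd1a, led by 0.220 for Bnip3 with Fam162a, and the wild type panel has no pair over 0.1.

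The genes whose counts ran most nearly with each of the 10 were then named, among genes of at least 20 CPM. Enzymes of glycolysis were among the 3 nearest genes to each of the mitochondrial genes in knockout cells. Bnip3 was nearest to the triosephosphate isomerase gene Tpi1 (0.243) and the lactate dehydrogenase gene Ldha (0.228), followed by Fam162a. For Bnip3, 99% of the 4432 genes were below 0.0768. Bnip3l was nearest to Ldha (0.178), the aldolase gene Aldoa (0.144) and Tpi1 (0.141). Higd1a was nearest to the cytokine gene Mif (0.197), the phosphoglycerate mutase gene Pgam1 (0.173) and Tpi1 (0.172), although its level was not higher in the knockout.

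Fam162a was nearest to T itself (0.294), followed by the proteasome activator gene Psme2 (0.277) and Ldha (0.270). In wild type cells Bnip3 with Ldha was at 0.0306, Bnip3l with Ldha at -0.0183 and Fam162a with T at 0.0421. These pairs were picked for high values in knockout cells, which favours a gap to wild type. The genes nearest in wild type cells were others. Fam162a was nearest there to Ppia, at 0.172 in knockout and 0.130 in wild type cells, and Bnip3 with Dnmt3b was at 0.0790 and 0.0549. Other pairs were lower in the knockout. Fam162a with Dcxr was at 0.108 in knockout and 0.112 in wild type cells, and Fam162a with Siva1 at 0.0802 and 0.124. Higd1a with Ran was at 0.0800 and 0.107, and Bnip3 with Mrpl34 at -0.0158 and 0.0582. Within T-negative knockout cells Bnip3 with Tpi1 was at 0.233 and Fam162a with Ldha at 0.199, against 0.243 and 0.270 in all knockout cells. Bnip3 with Fam162a was at 0.123 there against 0.220, and Bnip3l with Ldha at 0.109 against 0.178. Bnip3l with Tpi1 was at 0.0569 against 0.141, and Higd1a with Tpi1 at 0.0942 against 0.172. Each of these pairs was thus lower in T-negative cells, and the part of T in the correlations was not tested. Within the lower and higher chromosome 8 groups of the knockout Bnip3 with Tpi1 was at 0.251 and 0.197, and Fam162a with T at 0.329 and 0.246, whereas Bnip3l with Ldha was at 0.136 and 0.0997. The leading partners themselves were higher in the knockout, Ldha at 1506 against 687 CPM and Tpi1 at 298 against 188 CPM in wild type cells.

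The stress genes had other partners. Ddit4 was nearest to Mdm2, the ubiquitin ligase and target of p53, at 0.173 in knockout and 0.154 in wild type cells. Next came the AP-1 gene Jund in knockout cells (0.168, against 0.0626 in wild type), and the growth inhibitor gene Btg2, at 0.157 in knockout and 0.144 in wild type cells. Ddit4l, a relative of Ddit4, was the third in wild type cells at 0.132. Bhlhe40 had the highest values of the stress genes, with the calcium-binding S100a6 at 0.260 in knockout and 0.224 in wild type cells, the TWEAK receptor Tnfrsf12a at 0.259 and 0.196, and the simple epithelial keratin Krt8 at 0.258 and 0.211. Krt19 was at 0.256 and 0.216.

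Atf4, a transcription factor of amino acid stress, was among the nearest genes to both secreted factors. Stc2 was nearest to Mthfd2, a mitochondrial folate enzyme gene, at 0.153 in knockout and 0.1003 in wild type cells, and to Atf4 at 0.151 and 0.101. Vegfa was nearest to Atf4 in knockout cells, at 0.114 against 0.0839 in wild type, and then to Chac1 at 0.104 and 0.0380. Atf4 was at 177 CPM in knockout and 224 CPM in wild type cells. Ankrd37 and Ndrg1 had no partner over 0.1 in either library. Ankrd37 was nearest to the thioredoxin gene Txn1 in knockout cells (0.0812) and to Tdh in wild type cells (0.0541), and Ndrg1 to Krt8 at 0.0740 and 0.0612.

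**Figure D5:**
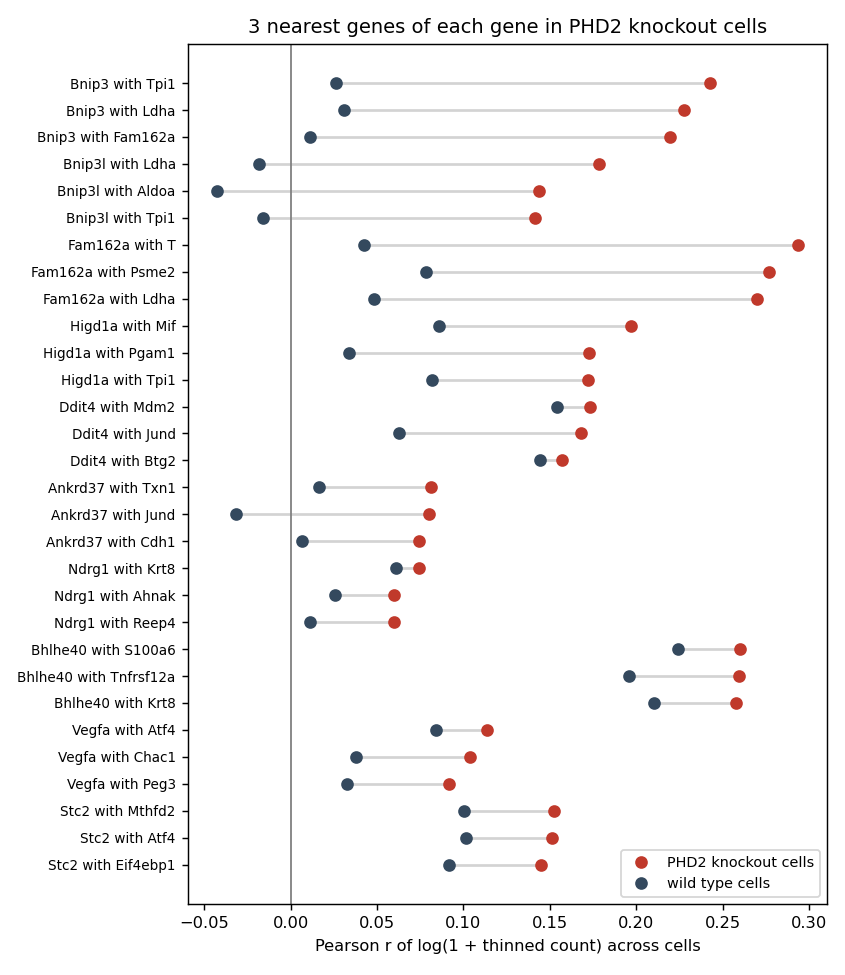
Pearson correlation across cells of each of the 10 genes with the 3 genes nearest to it in PHD2 knockout cells, shown in knockout cells (red) and wild type cells (dark blue). Bnip3 with Ldha is at 0.228 and 0.0306, and Ddit4 with Mdm2 at 0.173 and 0.154. The pairs were picked for high values in knockout cells, which favours a gap to wild type.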

How the data were processed

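The authors deposited, for each of 2 libraries, a matrix of raw UMI counts per gene and cell barcode. Per the file headers the software was Cell Ranger 4.0.0. The mm10 build and Seurat are named in the submitters' processing notes. Total depth was 173470962 UMIs in 7713 knockout barcodes and 226179474 UMIs in 9651 wild type barcodes. Groups follow the sample titles.

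Cells were kept with at least 1000 genes and at most 10% mitochondrially encoded UMIs. Scrublet (scanpy 1.11.5) marked 0 cells in either library at its automatic threshold, so the highest-scoring cells were removed at 0.8% per 1000 barcodes (456 knockout and 712 wild type cells). UMIs were summed per library and scaled to CPM. Levels have exact Poisson intervals, folds exact conditional binomial intervals and shares exact binomial intervals, all at 95% and for counting error only. UMI levels are compared within a gene and not between genes. T-positive cells had at least 1 T UMI after thinning to 14000 UMIs. Chromosome groups come from a mixture of 2 Gaussians over the cells of both libraries, without the 10 genes, Egln1 and mitochondrially encoded genes. Coordinates are GENCODE M21 (mm10). The procedure was tested on simulated data.

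The 10 genes and all lists were chosen with earlier results of these data known. The T comparison, the ratios and the correlations were repeated, as each allowed, with other limits on cells, scalings, thinning depths and draws, chromosome groups and without cells of shared barcodes. Named beside the 10 genes were up to 3 list members from each end of the ratio and the 3 nearest genes by correlation, and others were named after their values were seen, among them Mesp1 and its split. Of the list genes 3 (Nipsnap2, Castor1 and Castor2) were not found.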

Additional observations from a re-analysis of the deposited data

Results flagged for a closer look

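For 3 genes the ratio of T-positive over T-negative cells lay on opposite sides of 1 in the libraries, with the interval of at least 1 library not including 1. Bnip3 had ratios of 1.73 in knockout and 0.887 in wild type cells, Bhlhe40 had 0.784 and 1.33, and Ankrd37 had 1.01 and 0.713. The difference between the libraries was not tested. The wild type values rest on 67, 34 and 44 UMIs in T-positive cells, and without thinning the wild type ratios were 1.04 for Bnip3, 1.24 for Bhlhe40 and 0.874 for Ankrd37. For Bnip3 this pattern was lost without thinning. Its ratio there was 1.56 in knockout and 1.04 (0.916 to 1.18) in wild type cells, on the same side of 1. For Ankrd37 the pattern was also lost in alternatives. Without thinning the Ankrd37 knockout ratio was 0.962, on the same side of 1 as the wild type. In another random draw its wild type ratio was 0.818 (0.604 to 1.09).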

How the results depend on the processing

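No paired analysis was possible because each group has 1 library. In all, 77 results were recomputed in 520 alternatives, of which 385 stayed within the counting interval or 1.5 times the count, 135 moved and 0 called values changed sign. Only ratios past the limit and the median could be counted as changing sign. Other ratios did change sign, such as the Ankrd37 log2 ratio of T-positive over T-negative knockout cells. It was 0.008 in the main setting and -0.053 without thinning. The median log2 ratio of the 10 genes' measured members, 0.93, was 0.72 both with median-of-ratios scaling and in cells of low chromosome 8 share, and 0.66 in cells of high chromosome 11 share. The count lower in the knockout, 0, was 1 (Stc2) with median-of-ratios scaling, at a lower limit of fold, in cells of high chromosome 8 share and in cells of high chromosome 11 share. The shares lower over all measured genes were 6.73%, 6.90%, 2.02% and 6.09% in the same order. The count higher in T-positive knockout cells, 1, was 2 with 3 or more T UMIs, in another random draw, in cells of low chromosome 8 share and in cells without a Mesp1 UMI. The count lower in T-positive cells, 0, was 1 in knockout cells of low chromosome 8 share (Vegfa) and 1 in wild type cells of high share (Ankrd37). For the T comparison the share over all genes was taken in the main setting only. Knockout pairs correlated over 0.1, 3, were 5 without thinning and 1 in cells of high chromosome 8 share. In wild type cells the Ddit4 ratio of T-positive over T-negative cells was 1.03 in 1 random draw and 1.33 in another. At 2-fold, 5 genes were higher (Bnip3l was not), against 3.96% of all measured genes, and with no minimum level 7 were (Ndrg1 joined), against 28.1%. Splitting the T comparison and the correlations by chromosome 8 share, leaving out Mesp1-positive cells and leaving out shared barcodes were chosen after seeing the data.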
